A study of Mus musculus with 14 samples.

Results

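The collagen chains are the protein-coding genes whose symbol is Col, a number, the letter a and a number. There were 44 of them among the 55487 genes of the count table, and 40 of the 44 passed the filter on low values, which kept 16915 genes in all. They were grouped by the structure of the protein as 11 fibrillar chains, 9 fibril-associated chains with interrupted triple helices (FACIT), 6 basement membrane chains, 6 beaded chains, 3 network chains, 4 transmembrane chains, 2 multiplexins, 1 anchoring fibril chain (Col7a1) and 2 others (Col26a1 and Col28a1). The 4 chains that did not pass were Col26a1, Col6a4, Col6a5 and Col6a6.

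RNA came from caudal intervertebral discs (IVDs) of male mice, with 5 discs of a mouse pooled into 1 library, so each library stands for 1 mouse. In the genetic model, 3 db/db mice (homozygous for the Lepr db mutation, which impairs leptin receptor signalling throughout the body and makes mice obese and hyperglycaemic) were compared with 3 heterozygous db/+ littermates at 3 months of age. In the induced model, 4 STZ-HFD mice were compared with 4 Con+Veh mice, all wild-type C57BL/6J and 12 weeks old at the start. The STZ-HFD mice had a high-fat diet for a lead-in of 4 to 6 weeks, a single injection of streptozotocin (STZ, a toxin of the insulin-secreting β-cells) at 100 mg/kg, and the diet for another 12 weeks, whereas the Con+Veh mice had chow and citrate buffer. All db/+ controls carry 1 copy of the db allele. A pooled whole disc holds annulus fibrosus (AF), nucleus pulposus (NP) and whatever endplate cartilage, bone or outer tissue came with it.

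Collagens are trimers of chains that wind around each other over a stretch in which each triplet of residues holds a glycine, whose side chain is the only one small enough to fit the centre of the helix. In the disc, the lamellae of the AF are built mainly of type I collagen and the NP and cartilage endplate of type II collagen, with types IX and XI coating and seeding the cartilage fibrils, type VI forming beaded filaments around cells, type IV lying in basement membranes and type X marking hypertrophic cartilage. Chains are hydroxylated, glycosylated and folded in the endoplasmic reticulum, trimmed outside the cell and then crosslinked by lysyl oxidases.

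The glycine repeat is visible in the coding sequence. One stretch of 63 bases, or 21 codons, is printed for each of the 5 chains that passed the test in the STZ-HFD model, read from the GENCODE M21 transcript (GRCm38) and written 5′ to 3′, with the glycine codons in capitals. The stretches are codons 201 to 221 of Col2a1-201, 256 to 276 of Col6a1-201, 271 to 291 of Col6a2-201, 312 to 332 of Col8a2-201 and 1107 to 1127 of Col22a1-201.
Col2a1: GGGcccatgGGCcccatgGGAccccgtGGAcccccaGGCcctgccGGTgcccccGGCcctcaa
Col6a1: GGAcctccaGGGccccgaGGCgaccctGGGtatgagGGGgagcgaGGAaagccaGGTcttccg
Col6a2: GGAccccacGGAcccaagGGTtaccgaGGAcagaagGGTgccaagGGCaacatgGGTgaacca
Col8a2: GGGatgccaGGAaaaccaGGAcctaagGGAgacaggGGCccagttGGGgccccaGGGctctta
Col22a1: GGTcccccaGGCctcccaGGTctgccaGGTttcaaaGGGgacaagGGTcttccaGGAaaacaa
The glycine and proline codons are rich in G and C. The share of G and C is 79.4% in the Col2a1 stretch, 69.8% in Col6a1, 61.9% in Col6a2, 63.5% in Col8a2 and 58.7% in Col22a1. The whole coding sequences hold 63.2%, 57.9%, 59.7%, 64.6% and 59.9% in the same order, so the Col8a2 and Col22a1 stretches lie slightly under theirs. Over all 44 chains, the longest unbroken run of glycine triplets ranged from 23 to 344 (median 58.5), with 344 in Col3a1, 339 in Col2a1, 113 in Col22a1, 87 in Col6a1 and in Col6a2, and 60 in Col8a2. The run had a higher G and C share than the whole coding sequence in 39 of the 44 chains, with medians of 62.4% and 58.9%.

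Library totals ranged from 16076908 to 58943169 gene counts (median 46230594), of which 28.1% to 60.2% lay on ribosomal RNA genes. Every sample carried the same batch label. STZ-HFD replicate 1 stood apart: it had the lowest total, reads on 1106 of 1138 olfactory receptor genes against 178 to 319 in the other 13 libraries, and a scaling factor of 1.58 against 0.693 to 0.742 in the other STZ-HFD libraries. The labelled tissue fitted its main markers in that Acan, the aggrecan core protein, stood at 318 to 9314 CPM in every library (gene counts scaled to a common library total), and T, the brachyury gene of notochord-derived cells, at 12.1 to 306 CPM. Shh and Noto, which also mark notochord-derived cells, were at or near 0 in all but STZ-HFD replicate 1, where Shh reached 2.38 CPM. Lepr stood at 6.08 to 9.68 CPM in db/+ and 4.86 to 7.67 CPM in db/db, but the db allele alters splicing, so a count over the whole gene does not check the genotype.

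The collagen chains together took 6.46% ± 1.18 (SD, n = 3) of the counts outside ribosomal RNA genes in db/+ and 5.14% ± 1.54 (SD, n = 3) in db/db. In the other cohort they took 0.816% ± 0.131 (SD, n = 4) in Con+Veh and 0.587% ± 0.153 (SD, n = 4) in STZ-HFD. Ranges overlapped within each model, from 5.46% to 7.77% in db/+ against 3.37% to 6.14% in db/db, and from 0.662% to 0.931% in Con+Veh against 0.411% to 0.783% in STZ-HFD. The 2 cohorts did not overlap, but they differ in genotype, age and handling, and these cannot be told apart. Fibrillar chains made up most of the total in every library, at 4.72% to 6.92% in db/+ and 2.84% to 5.28% in db/db, and at 0.462% to 0.653% in Con+Veh and 0.261% to 0.548% in STZ-HFD. Apart from the single anchoring fibril chain, the beaded chains of type VI were the class whose shares did not overlap in the genetic model, at 0.488% to 0.545% in db/+ and 0.302% to 0.482% in db/db. In the induced model the beaded shares met at their ends, from 0.113% to 0.182% in Con+Veh and from 0.0652% to 0.114% in STZ-HFD. In a bulk sample, fewer cells of a type and less RNA per cell cannot be told apart, and this holds for every level below.

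**Figure D1:**
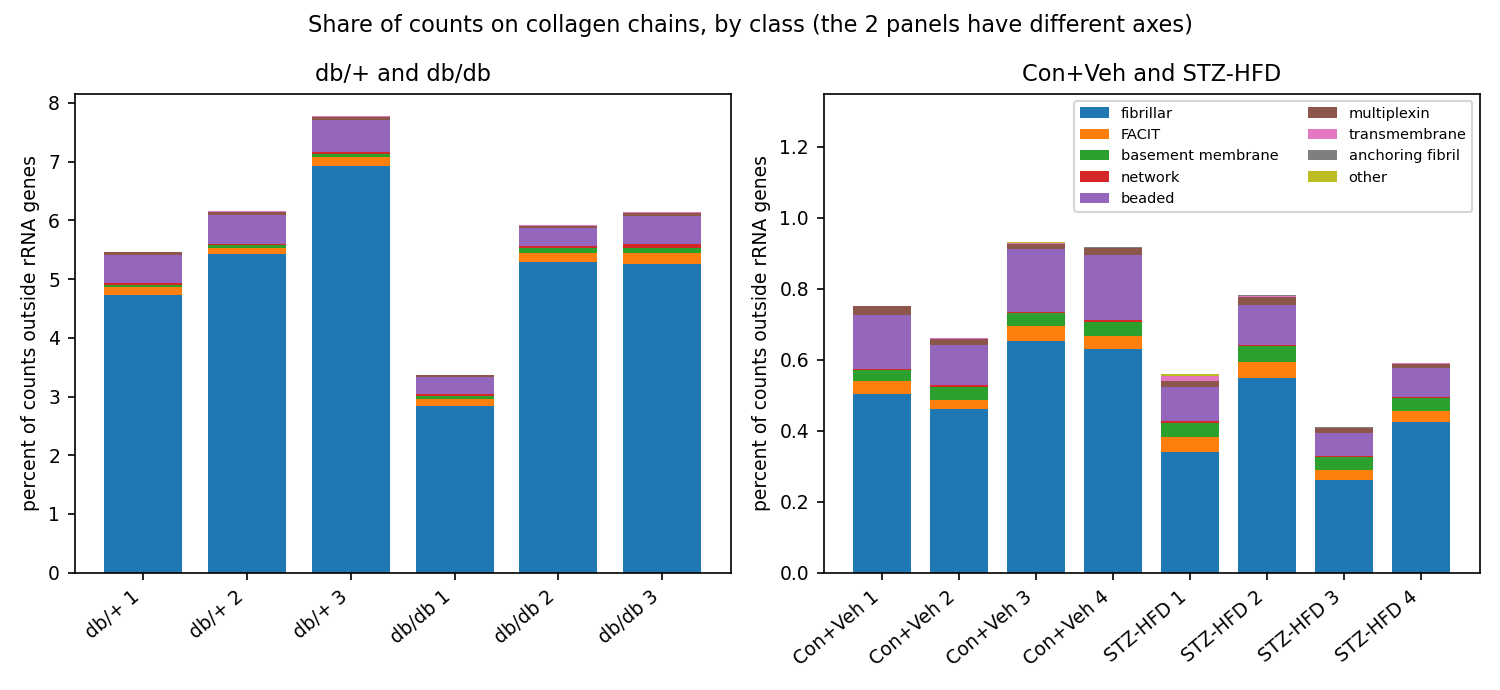
Share of each library's counts outside ribosomal RNA genes that fell on collagen chains, in percent, stacked by class, with 1 bar per library. The panels have different vertical axes, since the db/db and db/+ libraries reach 3.37% to 7.77% and the STZ-HFD and Con+Veh libraries 0.411% to 0.931%, with fibrillar chains the tallest segment in each bar.

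Levels between chains were compared per kilobase of exon (CPM per kb). Col1a1, the main chain of type I collagen, ranked 1 in all 4 groups, at 2524 CPM per kb in db/+, 1883 in db/db, 280.2 in Con+Veh and 194 in STZ-HFD. Col2a1 ranked 2 in db/+ (1022 CPM per kb) and db/db (543), 3 in Con+Veh (50.3) and 6 in STZ-HFD (14.9). In Con+Veh, the mean levels of Col6a2 (51.1 CPM per kb), Col2a1 (50.3), Col6a1 (45.8) and Col1a2 (38.2) followed each other closely, and their libraries overlapped, so the order of these 4 is not resolved. The cartilage chains Col9a1 and Col10a1 ranked 14 and 11 in db/+ and 29 and 24 in Con+Veh, while the basement membrane chains Col4a1 and Col4a2 ranked 18 and 17 in db/+ and 10 and 9 in Con+Veh. Col6a4, Col6a5, Col6a6 and Col26a1 lay at the bottom, at or below 1.65 CPM in every library other than STZ-HFD replicate 1. In that library they stood at 6.66, 5.76, 8.35 and 7.65 CPM, and Col6a4 was listed at 0 in 1 other STZ-HFD library.

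In the STZ-HFD model, 4 chains fell and 1 rose. Col2a1 of cartilage and NP fibrils, Col6a1 and Col6a2 of the filaments around cells, and Col8a2, a short network-forming chain best known from the membrane under the corneal endothelium, fell by 2.50-fold to 3.59-fold. Col22a1, a FACIT found at junctions of tissue such as muscle with tendon, rose 2.81-fold. To be called, a chain needed a log2 fold change of at least 1 in size besides an adjusted p below 0.05 (limma on voom with sample quality weights, Benjamini-Hochberg adjustment over all 16915 genes). The weights were 0.27, 0.46, 3.05 and 1.81 for Con+Veh replicates 1 to 4, and 0.38, 0.69, 1.52 and 1.53 for STZ-HFD replicates 1 to 4. Without weights no chain was called in this model, against 0.0177% of all genes higher and 0.0946% lower. The 1 of 40 called higher stands against 1.3% of all genes tested, and the 4 of 40 called lower against 1.31%. Of the 40 chains, 27 were fitted below 0 and the median log2 fold change was -0.38, whereas 52.8% of all genes lay below 0 and their median was -0.04. Levels of 6 chains did not overlap between the groups, 2 of them higher and 4 lower in STZ-HFD, against 4.74% of all genes.

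In the db/db model no chain was called in either direction, against 1.66% of all genes tested. An unadjusted p under 0.05 was reached by 8 of the 40 chains and by 3572 of all 16915 genes in limma, a like share, edgeR's quasi-likelihood test called none of the chains and no gene at all, and DESeq2 called Col7a1 lower, against 0.313% of all genes called lower by it. The largest fitted differences were those of Col7a1 (-1.39), Col11a2 (-1.17), Col17a1 (-1.10), Col6a3 (-1.02) and Col8a2 (0.99), on the log2 scale, an order that changed when the trend on base composition was removed. In this model 23 chains were fitted below 0 with a median log2 fold change of -0.21, against 52.7% of all genes and a median of -0.04. Levels did not overlap for 7 chains, 1 higher (Col8a2) and 6 lower (Col1a1, Col5a1, Col6a3, Col7a1, Col11a2 and Col17a1) in db/db, against 25.8% of all genes.

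**Figure D2:**
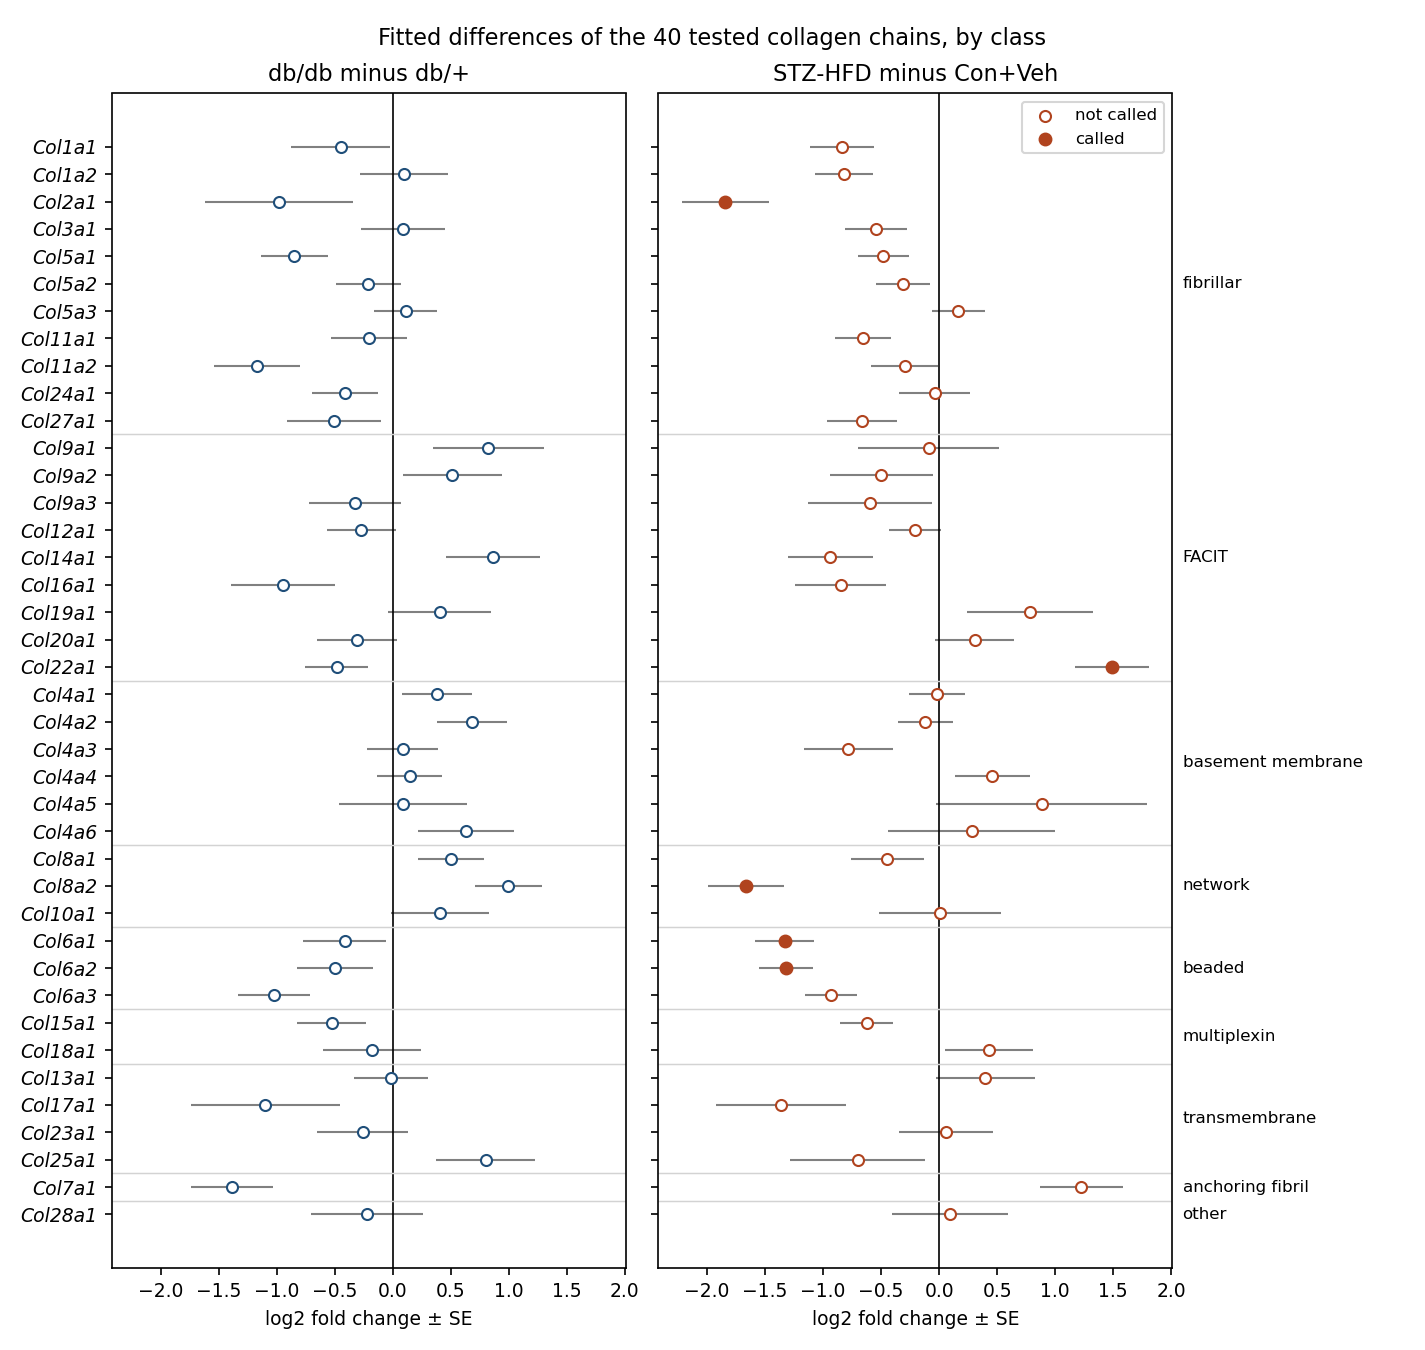
Log2 fold change of the 40 tested collagen chains, ordered by class, for db/db minus db/+ and STZ-HFD minus Con+Veh, with error bars of 1 SE from the limma fit and filled symbols for called chains. The filled symbols are all in the STZ-HFD model, with Col2a1, Col6a1, Col6a2 and Col8a2 left of 0 and Col22a1 at 1.49 to the right.

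Type I collagen forms the thick fibrils of the AF, tendon and bone. Col1a1 (GRCm38 chr11:94936224-94953042, + strand) stood at 15051, 16645 and 17990.0 CPM in db/+ replicates 1 to 3 and at 8442, 14024 and 14605 CPM in db/db. Its levels in Con+Veh replicates 1 to 4 were 1763, 1133, 2312 and 2148 CPM, and in STZ-HFD 583, 2219, 937 and 1358 CPM. Each db/db library lay under each db/+ library, while STZ-HFD replicate 2 lay inside the Con+Veh range. Neither difference passed the test, with log2 fold changes of -0.45 (SE 0.43, adjusted p = 0.581, and -0.03 with the trend on G and C content removed) in db/db and -0.84 (SE 0.27, adjusted p = 0.104) in STZ-HFD (limma, Benjamini-Hochberg). The partner chain Col1a2 stood at 2532, 2974 and 3358 CPM in db/+ and 1909, 3610.3 and 4334 CPM in db/db, and at 333, 369.9, 696 and 499.6 CPM in Con+Veh and 225, 435, 271 and 377 CPM in STZ-HFD. Its groups overlapped in both models, with log2 fold changes of 0.10 (SE 0.38, adjusted p = 0.910) and -0.82 (SE 0.25, adjusted p = 0.0772) by limma with Benjamini-Hochberg adjustment.

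The ratio of the 2 type I chains was described within each library, where it does not depend on library scaling. The log2 ratio of Col1a1 to Col1a2 counts was 2.42 to 2.57 in db/+ and 1.75 to 2.14 in db/db, without overlap, and 1.62 to 2.41 in Con+Veh and 1.38 to 2.35 in STZ-HFD, with overlap. Col3a1, the fibril chain of more elastic tissue and of vessels, stood at 389.8, 475 and 396 CPM in db/+ and 386, 255 and 907 CPM in db/db. In the other model it stood at 149.8, 271, 208 and 144 CPM in Con+Veh and 92.1, 144, 119 and 139 CPM in STZ-HFD. The STZ-HFD libraries all lay under the Con+Veh libraries by a small margin, with a log2 fold change of -0.54 (SE 0.27, limma with Benjamini-Hochberg adjusted p = 0.293).

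Type II collagen is the main fibril of cartilage and of the NP. Col2a1 (chr15:97975602-98004695, - strand) stood at 269, 157, 396 and 1038 CPM in Con+Veh replicates 1 to 4 and at 110.4, 143, 109.7 and 188 CPM in STZ-HFD replicates 1 to 4. Con+Veh replicate 4 was far above the other controls, and Con+Veh replicate 2 lay inside the STZ-HFD range. The means were 465 ± 394 and 138 ± 37.0 CPM (SD, n = 4 each), and the fitted decrease was 3.59-fold (log2 fold change -1.84, SE 0.37, limma with Benjamini-Hochberg adjusted p = 0.0162). Without Con+Veh replicate 4 the log2 fold change was -1.22 (SE 0.33) and the adjusted p was 0.130 by limma with Benjamini-Hochberg adjustment. In the genetic model Col2a1 stood at 7321, 8522 and 12490.0 CPM in db/+ and 2534, 4733 and 7804 CPM in db/db. The highest db/db library lay above the lowest db/+ library, and the log2 fold change of -0.98 had an SE of 0.64 (limma with Benjamini-Hochberg adjusted p = 0.391).

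Types IX and XI are minor chains of the same cartilage fibrils. Col11a1, which nucleates them, stood at 419, 237 and 466 CPM in db/+ and 219, 302 and 413 CPM in db/db, and at 63.6, 44.6, 63.7 and 57.6 CPM in Con+Veh and 45.1, 44.4, 26.7 and 48.0 CPM in STZ-HFD. The ranges met in both models, and the log2 fold changes were -0.21 (SE 0.33) and -0.66 (SE 0.24), neither called. Col11a2 (chr17:34039437-34066685, + strand), its partner, stood at 428, 156 and 324 CPM in db/+ and 114, 115 and 131 CPM in db/db. The db/db libraries lay close together under every db/+ library, and the log2 fold change was -1.17 (SE 0.37, limma with Benjamini-Hochberg adjusted p = 0.0936). In the induced model Col11a2 overlapped, at 60.4, 24.7, 37.1 and 59.3 CPM in Con+Veh and 26.1, 57.4, 35.5 and 29.1 CPM in STZ-HFD.

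The 3 type IX chains sit on the surface of type II fibrils. Col9a1 stood at 159.9, 53.2 and 207 CPM in db/+ and 105, 223 and 338 CPM in db/db, Col9a2 at 88.0, 37.8 and 106 against 51.1, 111 and 154 CPM, and Col9a3 at 53.6, 29.6 and 83.2 against 19.7, 45.9 and 62.7 CPM. In all 3, db/+ replicate 2 was the lowest db/+ library, and the groups overlapped. Col10a1, the chain of hypertrophic cartilage, showed the same low replicate, at 92.8, 52.8 and 140.1 CPM in db/+ and 54.3, 114 and 222 CPM in db/db. The fitted log2 fold changes of Col9a1, Col9a2, Col9a3 and Col10a1 in db/db were 0.82, 0.51, -0.33 and 0.41, with SEs of 0.40 to 0.48, and none was called.

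Relative to Col2a1, however, Col9a1 and Col10a1 stood higher in each db/db library than in each db/+ library. The log2 ratio of Col9a1 to Col2a1 counts was -7.32 to -5.52 in db/+ and -4.60 to -4.41 in db/db, and that of Col10a1 to Col2a1 was -7.33 to -6.30 in db/+ and -5.54 to -5.14 in db/db. That of Col11a1 to Col2a1 overlapped, at -5.17 to -4.13 in db/+ and -4.24 to -3.53 in db/db. The G and C share of the longest transcript was 62.2% in Col2a1, 52.2% in Col9a1 and 50.5% in Col10a1, and its part in these ratios was not tested. Of 9 ratios examined, with no test, 3 did not overlap in the genetic model, where 25.8% of single genes did not overlap. All 9 overlapped in the induced model, where 4.74% of single genes did not overlap and where Col9a1 and Col10a1 were low. Col9a1 stood at 1.09, 4.76, 5.73 and 3.31 CPM in Con+Veh and 6.99, 1.93, 3.70 and 5.32 CPM in STZ-HFD, and Col10a1 at 2.20, 5.59, 6.96 and 2.82 against 7.36, 4.92, 4.32 and 5.11 CPM. Col9a2 and Col9a3 lay in the same region, from 3.31 to 14.8 and from 2.77 to 8.69 CPM in Con+Veh and from 6.51 to 8.73 and from 2.76 to 8.14 CPM in STZ-HFD. The groups of these 4 chains overlapped and none was called.

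Of the remaining fibrillar chains, Col5a1 and Col5a2 limit the diameter of type I fibrils, and Col5a3, Col24a1 and Col27a1 belong to the same fibril-forming family. Col5a1 ranged from 326 to 421 CPM in db/+ and 169 to 264 CPM in db/db without overlap, with a log2 fold change of -0.85 (SE 0.29, limma with Benjamini-Hochberg adjusted p = 0.116). Col27a1 did not overlap in the induced model, at 52.7 to 124 CPM in Con+Veh and 31.9 to 52.4 CPM in STZ-HFD, and was not called (log2 fold change -0.67, SE 0.30). Col5a2, Col5a3 and Col24a1 overlapped in both models, with log2 fold changes between -0.41 and 0.16. In all, 10 of the 11 fibrillar chains were fitted below 0 in STZ-HFD (median -0.54) and 8 of 11 in db/db (median -0.41), with 1 called lower in STZ-HFD and none in db/db.

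**Figure D3:**
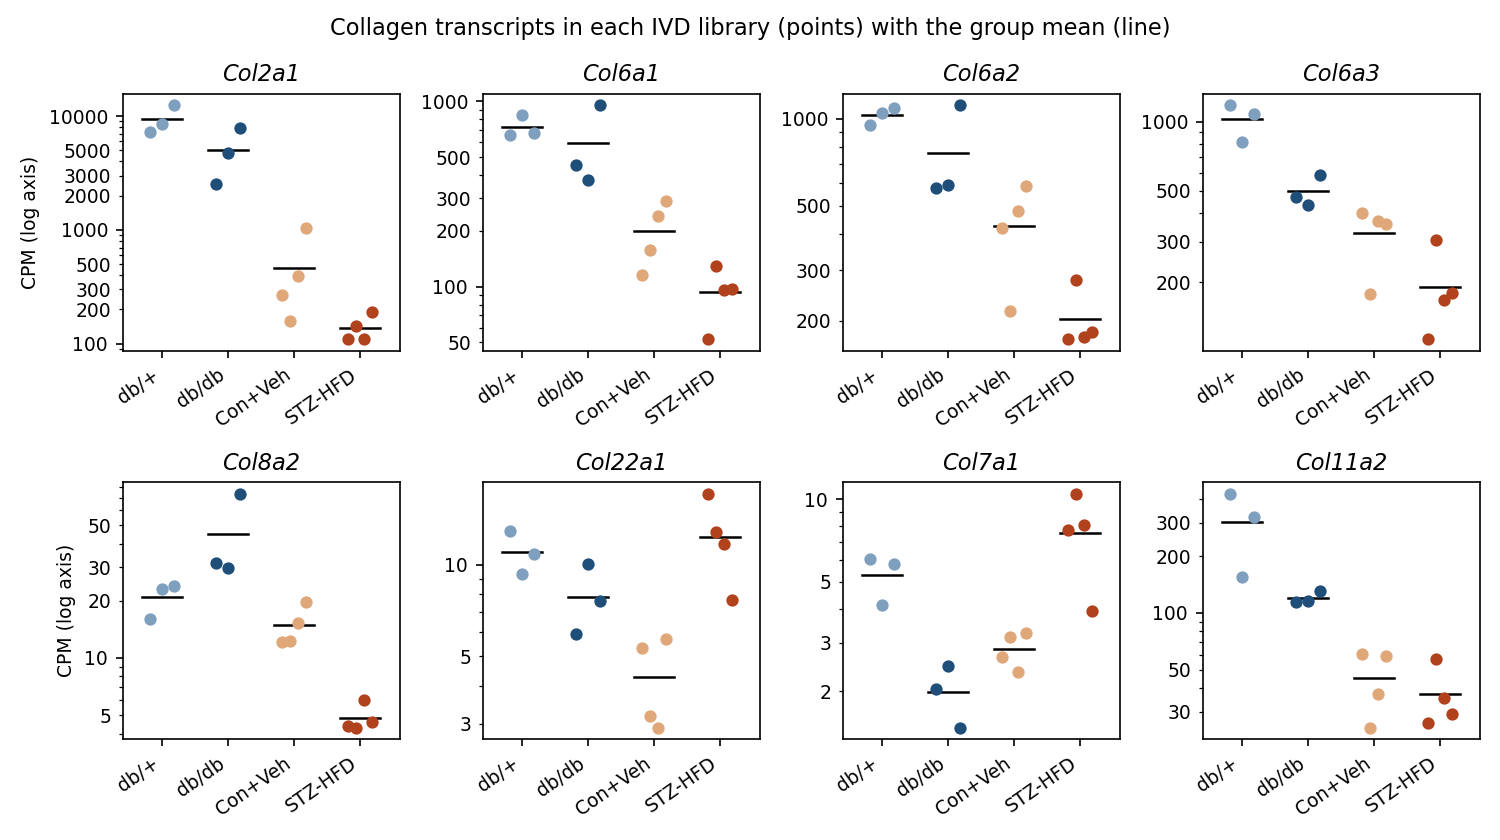
CPM of 8 collagen chains in each library on a log axis, by group, with a line at the group mean. Col8a2 and Col22a1 separate STZ-HFD from Con+Veh in opposite directions, and in the Col2a1 panel Con+Veh replicate 4 (1038 CPM) lies far above the other controls.

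Type VI collagen is assembled from Col6a1, Col6a2 and a long chain, usually Col6a3, and surrounds cells of the disc as a pericellular filament. Col6a1 (chr10:76708792-76726168, - strand) and Col6a2 (chr10:76595762-76623630, - strand) are neighbours on the same strand. Because these 2 chains fell together in STZ-HFD, the bases just upstream of each gene are printed, from the RefSeq promoter table (GRCm38.p6), read on the gene's strand, 5′ to 3′. The Col6a1 stretch is chr10:76726169-76726294 (126 bases) and the Col6a2 stretch chr10:76623631-76623880 (250 bases), with capitals for a GC box (GGGCGG on either strand).
Col6a1: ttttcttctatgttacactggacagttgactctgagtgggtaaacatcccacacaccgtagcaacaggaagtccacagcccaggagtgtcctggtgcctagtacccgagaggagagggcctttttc
Col6a2: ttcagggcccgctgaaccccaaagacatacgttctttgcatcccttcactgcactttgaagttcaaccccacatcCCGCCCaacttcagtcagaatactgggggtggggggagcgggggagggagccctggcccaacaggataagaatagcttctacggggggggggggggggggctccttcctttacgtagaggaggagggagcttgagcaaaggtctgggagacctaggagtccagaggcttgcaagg
Besides the GC box, 3 other motifs were searched on both strands. The TATA box (letters TATAAA) was found in 5 of the 38 full windows of 35 collagen genes and in 12.4% of all 32851 windows of the table. The CCAAT box was found in 13 collagen windows and in 33.9% of all windows. The core of the site bound by SOX proteins (letters ACAAAG) was found in 4 collagen windows and in 16.5% of all windows, and the GC box in 22 and in 32.7%. No motif is contained in another. The Col6a1 stretch holds none of the 4 motifs, and the Col6a2 stretch holds the GC box alone. A match is a description of the letters only.

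Col6a1 stood at 115, 157, 241 and 290.0 CPM in Con+Veh replicates 1 to 4 and at 52.1, 129, 95.8 and 96.6 CPM in STZ-HFD replicates 1 to 4. Col6a2 stood at 420.4, 216, 479 and 587 CPM in Con+Veh and 173, 278, 177 and 183 CPM in STZ-HFD. In both chains the overlap came from STZ-HFD replicate 2, the highest of its group, and the lowest Con+Veh library. The decreases were 2.52-fold for Col6a1 (log2 fold change -1.33, SE 0.25, adjusted p = 0.0114) and 2.50-fold for Col6a2 (-1.32, SE 0.24, adjusted p = 0.00863), by limma with Benjamini-Hochberg adjustment. Col6a3 (chr1:90765923-90843971, - strand) stood at 402, 178, 371 and 359 CPM in Con+Veh and 113, 306, 167 and 179 CPM in STZ-HFD. Its log2 fold change was -0.93 (SE 0.23, adjusted p = 0.0320 by limma with Benjamini-Hochberg adjustment), which passed the p threshold and not the fold minimum.

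In db/db the 3 type VI chains were fitted below 0 and none was called. Col6a1 stood at 659, 839.9 and 678 CPM in db/+ and 451, 376 and 952 CPM in db/db, and Col6a2 at 953, 1044 and 1088 against 577, 591 and 1114 CPM. In both chains db/db replicate 3 lay above every db/+ library while the other db/db libraries lay under them. Col6a3 stood at 1182, 818 and 1083 CPM in db/+ and 472, 435 and 586 CPM in db/db. Here each db/db library lay under each db/+ library, and the log2 fold change was -1.02 (SE 0.31, limma with Benjamini-Hochberg adjusted p = 0.0865).

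Type VIII collagen forms hexagonal nets from Col8a1 and Col8a2. Col8a2 (chr4:126286793-126314330, + strand) stood at 12.1, 12.3, 15.3 and 19.6 CPM in Con+Veh and 4.36, 4.30, 6.03 and 4.58 CPM in STZ-HFD, so every STZ-HFD library lay well under every control. The decrease was 3.17-fold (log2 fold change -1.66, SE 0.33, limma with Benjamini-Hochberg adjusted p = 0.0134). In the genetic model it was fitted in the other direction and not called, from 16.1, 22.97 and 23.9 CPM in db/+ to 31.8, 29.7 and 73.4 CPM in db/db (log2 fold change 0.99, SE 0.29, limma with Benjamini-Hochberg adjusted p = 0.0746). The groups did not overlap, and db/db replicate 3 was the highest. Its partner Col8a1 overlapped in both models, at 8.60 to 14.1 CPM in db/+ and 12.3 to 23.3 CPM in db/db, and at 4.97 to 13.9 CPM in Con+Veh and 5.84 to 8.63 CPM in STZ-HFD.

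Col22a1 (chr15:71795795-72034227, - strand) stood at 5.33, 3.18, 2.91 and 5.70 CPM in Con+Veh and 17.1, 12.8, 11.7 and 7.67 CPM in STZ-HFD, with no overlap. The increase was 2.81-fold (log2 fold change 1.49, SE 0.32, limma with Benjamini-Hochberg adjusted p = 0.0196). In db/+ it stood at 12.9, 9.30 and 10.8 CPM and in db/db at 5.93, 10.05 and 7.59 CPM, which overlapped. The summed level of 6 skeletal muscle markers is given beside it: 5001, 5305, 4227 and 5132 CPM in Con+Veh replicates 1 to 4 and 4196, 9923, 11610 and 11338 CPM in STZ-HFD. Of these markers 1 of 6, Acta1, was called higher in STZ-HFD. STZ-HFD replicate 1, with the highest Col22a1 and the lowest muscle sum of these 2 groups, is the library with reads on 1106 of 1138 olfactory receptor genes. The part of muscle in the result was not tested.

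Col7a1 (chr9:108953586-108984875, + strand), the anchoring fibril chain under epithelia, stood at 6.03, 4.10 and 5.81 CPM in db/+ and 2.05, 2.47 and 1.48 CPM in db/db. It stood at 2.66, 3.16, 2.35 and 3.26 CPM in Con+Veh and 7.73, 10.5, 8.08 and 3.92 CPM in STZ-HFD. The groups did not overlap in either model, lower in db/db and higher in STZ-HFD. The log2 fold changes were -1.39 (SE 0.35, adjusted p = 0.0502) and 1.22 (SE 0.36, adjusted p = 0.0690) by limma with Benjamini-Hochberg adjustment, so neither was called. Without Con+Veh replicate 2, or STZ-HFD replicate 2, 3 or 4, the db/db difference passed, with adjusted p of 0.0327 to 0.0465 (limma, Benjamini-Hochberg). These are libraries of the other cohort, and the db/db log2 fold change stayed at -1.38 to -1.39. The fit shares 1 estimate of spread over all groups. Leaving out any db/+ or db/db library gave adjusted p of 0.0791 to 0.149 (limma, Benjamini-Hochberg). Of the epidermal keratins, Krt5 was at 0 in every db/+ and db/db library and at most 1.77 CPM elsewhere, and Krt14 was at most 1.89 CPM in all libraries. The 4 epidermal markers summed to 2.83 to 3.28 CPM in db/+ and 1.89 to 2.82 CPM in db/db, without overlap. Most of this sum was Krt10, which was not called (log2 fold change -0.46), and the highest Krt1 level was in db/db. In the induced model the sums overlapped, at 3.26 to 4.46 CPM in Con+Veh and 1.71 to 8.35 CPM in STZ-HFD. There Krt10 was fitted below 0 (-0.67) and not called. The part of these markers in the result was not tested.

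Whether a chain responded differently in the 2 models was tested as the difference of the 2 log2 fold changes, db/db minus db/+ against STZ-HFD minus Con+Veh, at an adjusted p under 0.05 with no fold minimum. Such a difference was called for 3 of 40 chains, against 1.77% of all genes tested. It was 2.66 for Col8a2 (SE 0.44, adjusted p = 0.0175), -2.61 for Col7a1 (SE 0.50, adjusted p = 0.0209) and -1.97 for Col22a1 (SE 0.42, adjusted p = 0.0300), by limma with Benjamini-Hochberg adjustment. Col2a1, Col6a1 and Col6a2, called in the STZ-HFD model only, were not among them. Without Con+Veh replicate 3 none of the 3 differences was called, against 0.0239% of all genes tested. Without db/db replicate 3 or STZ-HFD replicate 3 only that of Col8a2 was, against 0.16% of all genes in the fit without STZ-HFD replicate 3. That of Col22a1 was also lost without db/+ replicate 1, db/+ replicate 2, db/db replicate 1 or STZ-HFD replicate 2, so it was called in 7 of the 14 fits with 1 library left out.

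The 6 type IV chains of basement membranes were all fitted above 0 in db/db, with log2 fold changes from 0.08 to 0.69, and none was called. Col4a2 had the largest, from 91.7 to 173 CPM in db/+ and 146 to 298 CPM in db/db (log2 fold change 0.69, SE 0.30, limma with Benjamini-Hochberg adjusted p = 0.203). Its partner in the common type IV trimer, Col4a1, ranged from 101.05 to 156 CPM in db/+ and from 125 to 191 CPM in db/db. Endothelial markers, from a cell type with a basement membrane, summed to 125 to 183 CPM in db/+ and 185 to 221 CPM in db/db. These sums did not overlap, as was so for 25.8% of single genes, and none of 4 markers was called. The markers were split, with log2 fold changes of 0.50 for Pecam1, 0.48 for Kdr, 0.06 for Cdh5 and -0.04 for Tie1. Their part was not tested. In STZ-HFD the same 6 chains were split evenly, 3 above and 3 below 0, with log2 fold changes from -0.78 to 0.88, none called.

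Among the other FACIT chains, Col12a1 and Col14a1 bind type I fibrils of tendon and AF. Col12a1 overlapped in both models (log2 fold changes -0.27 and -0.21), as did Col14a1, which ranged from 10.2 to 20.7 CPM in db/+ and 15.9 to 55.7 CPM in db/db (0.87, SE 0.40) and from 16.5 to 36.0 CPM in Con+Veh and 11.8 to 35.2 CPM in STZ-HFD (-0.94, SE 0.37). Col16a1, Col19a1 and Col20a1 overlapped too, and none was called. Of the multiplexins, which carry endostatin-like ends, Col15a1 was lower in each STZ-HFD library (36.8 to 59.8 CPM) than in each Con+Veh library (65.9 to 105 CPM) and was not called (log2 fold change -0.62, SE 0.23), while Col18a1 overlapped. The transmembrane chains Col13a1, Col23a1 and Col25a1, and Col28a1, overlapped in both models, none called.

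Col17a1 (chr19:47646344-47692094, - strand), the transmembrane chain of hemidesmosomes, had a fitted direction in the induced model that depended on the test. Its raw counts were 46, 46 and 65 in db/+ and 39, 25 and 22 in db/db, and 20, 70, 50 and 56 in Con+Veh and 190, 26, 30 and 15 in STZ-HFD. In CPM these were 0.944, 0.800 and 1.01 in db/+ and 0.614, 0.359 and 0.346 in db/db, and 0.543, 1.45, 2.35 and 3.04 in Con+Veh and 7.81, 0.894, 0.932 and 0.446 in STZ-HFD. STZ-HFD replicate 1 lay above all controls and the other STZ-HFD libraries lay within or under them. The weighted limma fit gave a log2 fold change of -1.37 (SE 0.56), although the mean CPM was higher in STZ-HFD (2.52 against 1.85), and edgeR and DESeq2 gave 0.45 and 0.49.

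In the db/db model the fitted differences of the chains moved with base composition. Across 16899 genes, Spearman's rho between the share of G and C in the longest transcript and the db/db log2 fold change was -0.43, and across the 40 chains it was -0.37, where genes share libraries and are not independent replicates. The chains had a median of 55.4% G and C against 49.1% for all genes, with 35 of 40 above the median of all genes. After the trend on G and C was removed from each library, rho was -0.10 across the chains, and their median db/db log2 fold change turned from -0.21 to 0.09. With the trend removed, Col8a2 was called higher in db/db (log2 fold change 1.43), against 0.675% of all genes, and was the only one of the 40 chains whose response was called different between the models, against 0.598%. In that fit the largest db/db log2 fold changes were those of Col8a2, Col4a2 (1.17), Col9a1 (1.01) and Col9a2 (1.01), while Col7a1 stood at -0.92, Col17a1 and Col6a3 at -0.76, Col11a2 at -0.68 and Col1a1 at -0.03. Leaving out db/db replicate 1, without removal of the trend, also turned the median of the chains, to 0.07. For STZ-HFD against Con+Veh, rho was -0.08 across genes and -0.12 across chains, and the median stayed below 0 (-0.31) with the same counts of 1 called higher and 4 called lower, against 1.09% and 1.04% of all genes.

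**Figure D4:**
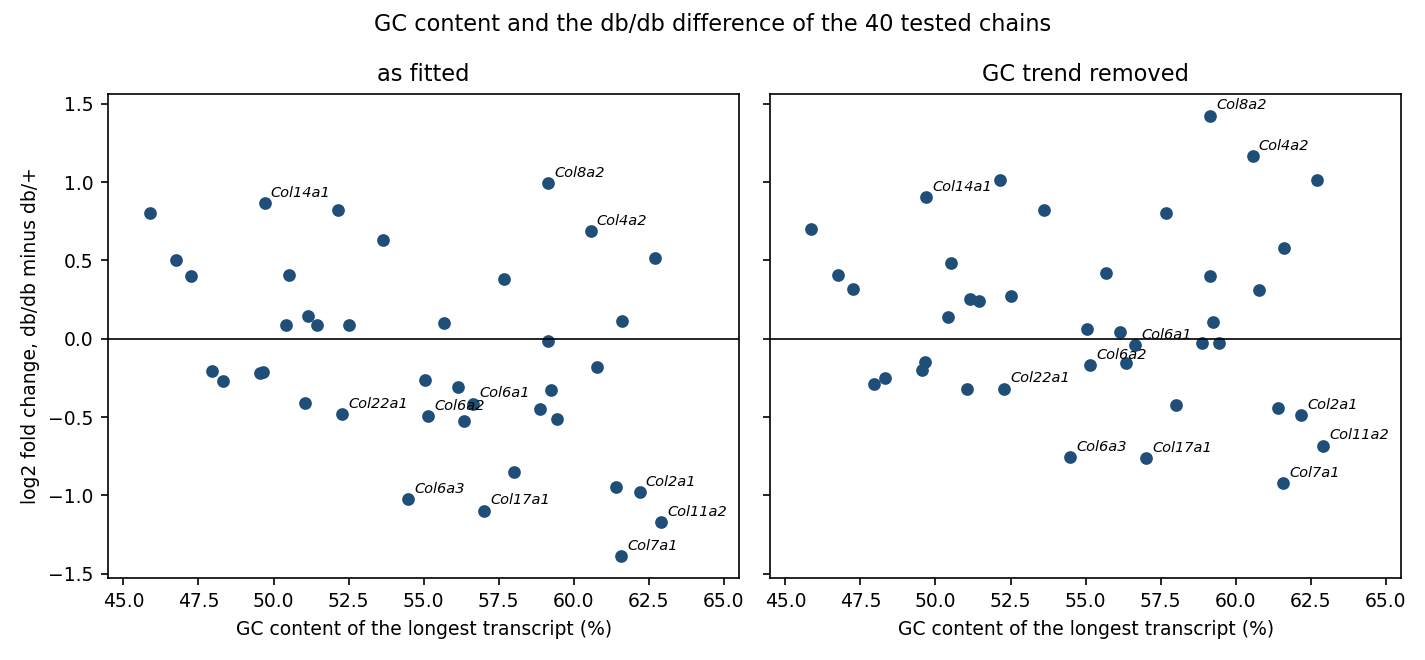
Percent of G and C in the longest transcript of each of the 40 tested chains against its log2 fold change in db/db minus db/+, as fitted and with the trend on G and C removed. As fitted, chains of higher G and C lie lower (rho -0.37), and with the trend removed rho is -0.10 and the median moves to 0.09.

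The calls in the induced model depended on single libraries. Without Con+Veh replicate 3, Con+Veh replicate 4 or STZ-HFD replicate 3, none of the 5 chains was called, with adjusted p between 0.0873 and 0.359 by limma with Benjamini-Hochberg adjustment, whereas the direction of each of the 5 held. In these fits 0.102% to 0.108% of all genes tested were called in either direction, against 2.61% with all libraries. Without STZ-HFD replicate 4, Col2a1 and Col22a1 were still called and Col6a1, Col6a2 and Col8a2 had adjusted p of 0.0574, 0.0563 and 0.0727 (limma, Benjamini-Hochberg). Leaving out STZ-HFD replicate 1, the library with reads on most olfactory receptor genes, left all 5 called, with log2 fold changes of -1.85 for Col2a1, -1.25 for Col6a1, -1.31 for Col6a2, -1.62 for Col8a2 and 1.46 for Col22a1.

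**Figure D5:**
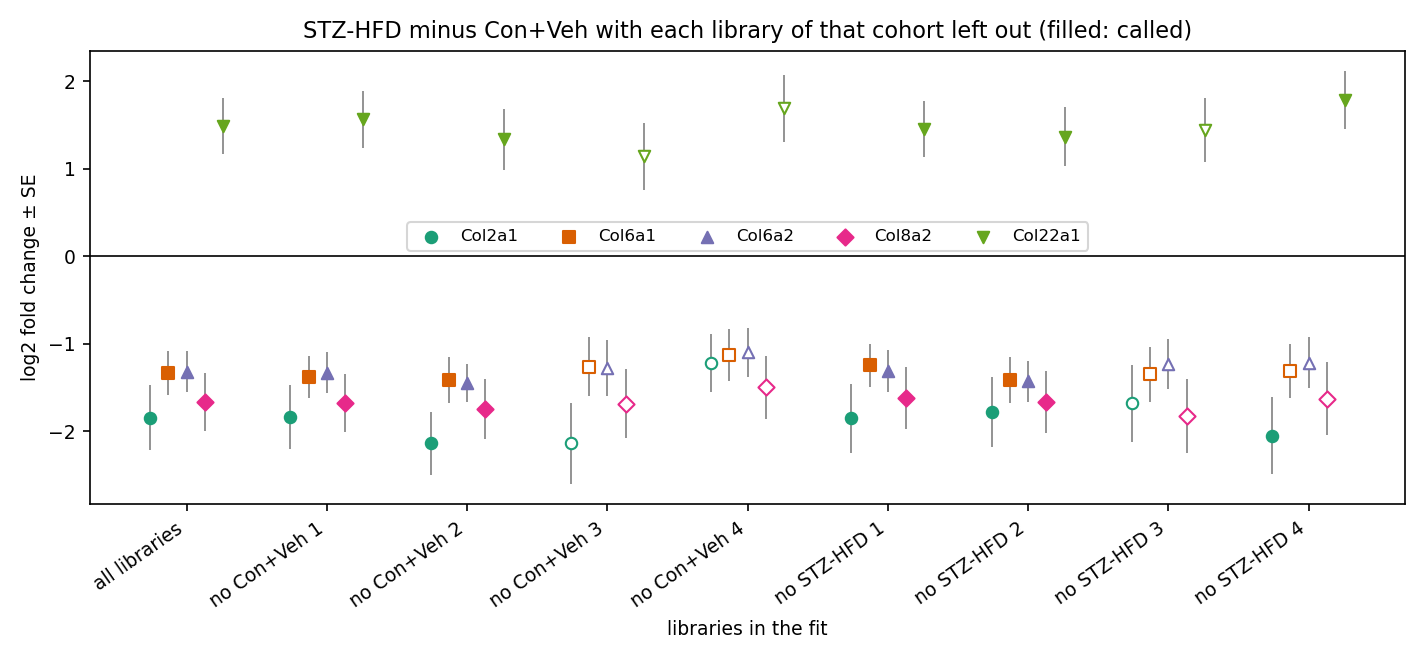
Log2 fold change of STZ-HFD minus Con+Veh for the 5 called chains, with error bars of 1 SE from the limma fit, with all libraries and with each library of that cohort left out. Each estimate stays on its side of 0, from -2.14 to -1.22 for Col2a1 and from 1.14 to 1.78 for Col22a1.

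Genes that make, trim, break down or bind collagen were read from a list of 63, of which 61 were tested. In STZ-HFD 8 of the 61 fell and none rose, against 1.31% and 1.3% of all genes tested. The list was chosen with earlier results of these data known, so these counts are a description and not a test. Without quality weights 0.0946% of all genes were called lower. The share was 0.0837% without Con+Veh replicate 3, 0.0838% without Con+Veh replicate 4 and 0.0889% without STZ-HFD replicate 3. The calls of the listed genes in those fits are not given here. Of the 61, 54 were fitted below 0, against 52.8% of all genes, and the median log2 fold change was -0.50, against -0.04. Of the 35 genes of synthesis and processing, 6 fell. These were Colgalt2, which adds galactose to hydroxylysine (-1.68, adjusted p = 0.00211), Creb3l1, a transcription factor of collagen secretion (-1.40, adjusted p = 0.0282), Pcolce2, an enhancer of procollagen trimming (-1.80, adjusted p = 0.00247), the crosslinking enzymes Lox (-1.27, adjusted p = 0.0142) and Loxl3 (-1.18, adjusted p = 0.0196), and Sparc, a collagen-binding matrix protein (-1.03, adjusted p = 0.0412), on the log2 scale by limma with Benjamini-Hochberg adjustment. Of 9 transcription factors, Sox9, which drives Col2a1 in cartilage, fell by 1.53 and Mkx, a factor of tendon and outer AF, fell by 1.16 on the log2 scale (adjusted p = 0.00419 and 0.0496, limma with Benjamini-Hochberg). None of 9 tested genes of degradation and none of 8 receptors was called in STZ-HFD. In db/db 2 of the 61 fell and none rose, against 0.432% and 1.23% of all genes, and the median log2 fold change was -0.27, against -0.04. These were Loxl3 (-1.18, adjusted p = 0.0346) and the collagen receptor kinase Ddr1 (-1.28, adjusted p = 0.0276), by limma with Benjamini-Hochberg adjustment. The quasi-likelihood test of edgeR called no gene in db/db, these 2 included. With the trend on G and C removed, 0.112% of all genes were called lower in db/db, and without quality weights 0.0118%. Whether Loxl3 and Ddr1 passed in those fits is not given here.

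Some lists of cell type markers differed between the groups and others did not. Single genes were called lower in STZ-HFD at a rate of 1.31% and higher in db/db at 1.23%, and did not overlap at 4.74% and 25.8%, as given above. A list of 7 chondrocyte markers summed to 1655, 1253, 2165 and 2304 CPM in Con+Veh and 605, 646, 512 and 1129 CPM in STZ-HFD, without overlap, and 4 of its 6 tested genes (Acan, Sox9, Hapln1 and Comp) were called lower. The 5 hypertrophic chondrocyte markers summed to 637 to 1432 CPM in Con+Veh and 244 to 545 CPM in STZ-HFD, without overlap, with 2 of 5 (Ibsp and Spp1) called lower. The largest part of this sum was Spp1, at 528 to 1080 CPM in Con+Veh and 140 to 292 CPM in STZ-HFD. Ihh, Pth1r, Ibsp and Mmp13 each overlapped, and Ihh, Pth1r and Mmp13 were fitted below 0 and not called. In db/db the chondrocyte list summed to 2769 to 5794 CPM against 5895 to 10681 CPM in db/+, without overlap and with none called, and Matn1 was near 0. Most of that sum was Acan, at 1772.5 to 4147.5 CPM in db/db and 4339.4 to 9313.9 CPM in db/+. Hapln1 was fitted above 0 in db/db (log2 fold change 0.35) and the other tested genes of the list below 0. The 4 adipocyte markers summed to 182 to 326 CPM in db/db and 69.7 to 102 CPM in db/+, with 3 of 4 (Adipoq, Plin1 and Fabp4) called higher. The NP and notochord, osteoblast and osteoclast lists overlapped in both models with none called. The AF and tendon sums overlapped in both models too, at 396 to 844 CPM in Con+Veh and 243 to 451 CPM in STZ-HFD. Of these 5 markers, 2 (Mkx and Fmod) were called lower in STZ-HFD. Scx (log2 fold change 0.30), Tnmd (-0.41) and Thbs4 (-0.14) were not called. Of 4 leukocyte markers, Cd68 and Lyz2 were called lower in STZ-HFD, and smooth muscle, blood and Schwann cell lists overlapped in both models with none called. The part of these markers in the collagen results was not tested.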

How the data were processed

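Total RNA of pooled caudal discs was sequenced, after amplification of the cDNA, from 14 mice, namely 4 Con+Veh, 4 STZ-HFD, 3 db/+ and 3 db/db. The authors aligned reads with STAR to GRCm38 and counted them per gene with Subread featureCounts, and the deposited gene counts are raw. They also deposited estimated counts per transcript from Salmon, which were rounded and used as an alternative. Strand and multi-mapping settings are not given in the sources used here. The diet held 80% of its kcal as fat per the labels and 60% per the methods.

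Counts were scaled by trimmed mean of M values (edgeR 4.0.16 in R 4.3.3), and a gene entered the fit where 3 or more libraries exceeded 1 CPM. CPM values divide a gene's counts by the scaled library total. All 14 libraries were fitted with one mean per group in limma 3.58.1 (voom with sample quality weights), with Benjamini-Hochberg adjustment over all genes tested. The p-values measure the spread between mice within groups, with 1 estimate per gene shared by all 4 groups. A library of one model therefore also moves the p-values of the other. The spread between cohorts is not measured. Positions, exon lengths and G and C shares came from GENCODE M21 (GRCm38).

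Values are given in every library for 10 main chains of disc, cartilage and bone, for every called chain and for the 5 chains with the largest fitted difference in each model, with others given by range. Called genes of the pathway list were named. The members, lists and tests were chosen with earlier results of these data known. Other fits tried were DESeq2 1.42.0, the quasi-likelihood test of edgeR, voom without weights, DESeq2-style size factors, other filters, each model alone, a replicate block, removal of the trend on G and C in 20 bins, transcript counts, removal of ribosomal RNA genes, no fold minimum, and leaving out each library. Batch could not be tested, since all samples share 1 label.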

Additional observations from a re-analysis of the deposited data

Results flagged for a closer look

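Of 54 groups of 4 libraries examined over the chains and ratios given by library, 5 held a library far from the others of its group, by Dixon's 95% critical value for a group of 4. Chance flags about 1 in 20 groups, and only groups of 4 were examined. Col11a1 was low in STZ-HFD replicate 3, at 26.743 CPM against 44.359 to 47.985 CPM in the other STZ-HFD libraries. Col17a1 was high in STZ-HFD replicate 1, the library with reads on 1106 olfactory receptor genes, at 7.8114 CPM against 0.44595 to 0.93182 CPM. Col8a2 was high in STZ-HFD replicate 3, at 6.0257 CPM against 4.2983 to 4.5785 CPM, all under the Con+Veh libraries. Col6a2 was high in STZ-HFD replicate 2, at 277.6 CPM against 173.17 to 182.96 CPM. The log2 ratio of Col2a1 to Col1a1 was high in Con+Veh replicate 4, at -1.0501 against -2.8468 to -2.5439 in the other controls.

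The responses of 3 chains differed between the models by a test of the difference itself (limma with Benjamini-Hochberg adjustment). The difference of log2 fold changes, db/db minus db/+ against STZ-HFD minus Con+Veh, was 2.658 for Col8a2, -2.6085 for Col7a1 and -1.9714 for Col22a1, of which Col8a2 was called also after removal of the trend on G and C. For Col7a1 the 2 single responses each missed the threshold.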

How the results depend on the processing

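In the STZ-HFD model, 1 chain was called higher and 4 lower. There edgeR's quasi-likelihood test called 0 higher and 1 lower (Col8a2), against 0.0355% and 0.136% of all genes. DESeq2 called 2 higher (Col22a1 and Col7a1), against 0.721%. Voom without quality weights called 0 higher and 0 lower in this model, against 0.0177% and 0.0946%. No filter and transcript counts also called 0 higher and 0 lower, and their shares over all genes are not given here. Leaving out 1 library gave 0 to 2 higher and 0 to 5 lower, with 0 of either without Con+Veh replicate 3, Con+Veh replicate 4 or STZ-HFD replicate 3. In those fits 0.102% to 0.108% of all genes were called in either direction. In the db/db model, where 0 were called, DESeq2 called 1 lower (Col7a1), against 0.313% of all genes. Removal of the trend on G and C called 1 higher (Col8a2), against 0.675%, and leaving out 1 library gave 0 higher and 0 to 1 lower. The difference between the models, called for 3 chains, was called for 1 by the quasi-likelihood test, with transcript counts and with the trend on G and C removed. The share of all genes was 0.0296% by the quasi-likelihood test and 0.598% with the trend removed. This difference was called for 0 chains without quality weights, against 0.0177% of all genes, and for 0 to 4 with 1 library left out. Without both libraries whose names share an ending (Con+Veh replicate 2 and STZ-HFD replicate 4), 1 chain was called lower in db/db and 2 higher in STZ-HFD. The shares over all genes in that fit are not given here. In settings chosen after seeing the data, with the trend on G and C removed and STZ-HFD replicate 1 left out, with or without ribosomal RNA genes, 1 chain was called higher in db/db and 1 differed between the models. The shares over all genes in these settings are not given here either. With estimated counts per transcript, 41 of the 44 members had a protein-coding transcript. With all other settings the counts of calls stayed within 1.5 times.

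Same-numbered libraries are different mice, and their deviations from the group means correlated at 0.19, -0.28 and -0.19 in the genetic model and -0.04, -0.26, -0.08 and -0.06 in the induced one, so the numbers do not pair the samples. With the replicate block, 2 chains were called higher (Col14a1 and Col8a2) and 5 lower (Col2a1, Col6a3, Col7a1, Col11a2 and Col16a1) in db/db, against 4.71% and 4.07% of all genes. In that fit 0 were called higher and 0 lower in STZ-HFD, against 0.0118% and 0.0236% of all genes. Also 0 differed between the models, against 0.0118%. With the replicate block and the trend on G and C removed, 3 were called higher in db/db, against 3.41% of all genes. There 0 were called higher and 0 lower in STZ-HFD, against 0.00592% each, and 0 differed, as did 0 of all genes.

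Directions turned only for fitted differences that were not called. In db/db, the replicate block gave log2 fold changes of -0.1164 for Col1a2, -0.0418 for Col9a2 and -0.109 for Col10a1 (-0.0548 with the trend on G and C removed too), and Col9a3 stood at 0.109 with that trend removed and at 0.107 in both settings chosen after seeing the data. In STZ-HFD, Col9a1 stood at 0.27 by the quasi-likelihood test, 0.30 by DESeq2, 0.40 without quality weights, 0.0481 with the replicate block and 0.0732 with block and trend removal. Without quality weights Col9a2 stood at 0.22 and Col9a3 at 0.0424, Col10a1 stood at -0.0167 and -0.0166 in the settings chosen after seeing the data, and Col17a1 stood at 0.45 by the quasi-likelihood test and 0.49 by DESeq2. With 1 library left out, the db/db values ran from -0.14824 to 0.442 for Col1a2, -0.42613 to 0.48711 for Col3a1, -0.006758 to 0.96168 for Col9a2, -0.78834 to 0.14977 for Col9a3, -0.10203 to 0.91749 for Col10a1 and -0.54993 to 0.025233 for Col11a1, and the STZ-HFD values from -0.41496 to 0.40886 for Col9a1 and -0.22029 to 0.54374 for Col10a1. The causes were not tested. Low chains rest on few reads, as in Col17a1 with 15 to 190 counts per library.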
